A study of Homo sapiens with 9 samples.

Results

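The genes described here carry some of the longest coding sequences (CDS) of the human genome: DYNC1H1, UBR4, HUWE1, AHNAK, MACF1, SRRM2, PRKDC, MDN1, HERC1 and HERC2. They were chosen by symbol, as well expressed genes with a CDS above about 8 kb whose introns run from few and short to many and long, and the rule uses no fold change. All 10 were listed in both comparisons, out of 51111 genes in one and 51268 in the other, and all 10 had enough reads to be tested. The data came from HEK293T cells, an established wildtype line derived from human embryonic kidney. The 9 libraries were 3 of input RNA, 3 of an RNA immunoprecipitation (RIP) with an antibody against the nuclear poly(A) binding protein PABPN and 3 of a RIP against its cytoplasmic counterpart PABPC. Cells of every group, input included, were crosslinked with 0.1% formaldehyde for 10 min, and each of the 3 lysates was divided between the antibodies. A single cell line and antibody per protein were used, and no RIP with a control antibody was analysed here.

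Poly(A) binding proteins coat the adenosine tails of RNA, PABPN mainly on new transcripts in the nucleus and PABPC mainly on mature mRNA in the cytoplasm. A gene with a giant CDS takes long to transcribe and to translate, and in most such genes the coding sequence is spread over many exons separated by long introns, so that the precursor is far larger than the mRNA. The proteins encoded here are correspondingly large: a motor subunit, cytoskeletal linkers and scaffolds, ubiquitin ligases, a DNA repair kinase, a ribosome assembly ATPase and a splicing cofactor.

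Values per library were not analysed here. The deposited tables gave for each gene the mean of normalised counts over 6 libraries (baseMean), a log2 fold change against input and the standard error (SE) of that change, from which the mean level of each group was worked out. Estimated reads on listed genes ran from 36.5 to 52.2 M per library, which leaves out reads outside those genes and so is below the full depth. The 10 genes took 0.676% of the reads in input, 0.614% in PABPN RIP and 0.318% in PABPC RIP. Their SEs lay between 0.0863 and 0.162. Of the markers checked, NEFM, NEFL and VIM were abundant, PAX2 and SOX9 were present, and PTPRC, CD3E, ALB, APOA1, INS, TNNT2 and MYH7 had baseMean values of at most 8.64. GFAP was the highest of the other lineage markers, with baseMean values of 28.7 (PABPN) and 51.2 (PABPC). Each library was made from bulk RNA, so the number of cells that carry a transcript and the amount per cell cannot be told apart.

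The 10 genes differ in how their coding sequence is divided. By the principal transcript of GENCODE release 44, AHNAK had a CDS of 17.67 kb in 5 exons, and its longest exon of 18173 nt made up 96.9% of the mRNA. SRRM2 had the shortest CDS, 8.256 kb in 15 exons, with 74.1% of the mRNA in 1 exon. These were also the members with the least intron in that transcript, 12.1 kb for AHNAK and 9.73 kb for SRRM2. The other 8 had between 78 and 106 exons. Their introns summed to 71.9 kb in DYNC1H1, 120 kb in UBR4, 140 kb in HUWE1, 159 kb in MDN1, 174 kb in PRKDC, 196 kb in HERC2, 210 kb in HERC1 and 258 kb in MACF1. MACF1 had the longest CDS, 22665 nt in the principal transcript. Its longest CDS over all transcripts, 22.776 kb, was at rank 8 among all annotated coding genes. The annotated AHNAK gene is longer than its principal transcript, 122.694 kb, of which 103 kb lie outside exons.

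Because both antibodies are directed at proteins that bind adenosine tracts, the most A-rich 30-base stretch of coding sequence is shown for 3 members, with runs of at least 4 A in capitals.
SRRM2 (chr16:2758509-2758538, hg38, plus strand): aaagcagaagaagaagAAAAAgaagaaaga
AHNAK (chr11:62517277-62517306, hg38, minus strand): aagtcaaactgAAAAAgtccaagatcAAAA
HERC1 (chr15:63689595-63689624, hg38, minus strand): cagataaaggAAAAAgaacaagaaatAAAA
The stretch held 21 A of 30 in SRRM2 and in HERC1 and 17 in AHNAK. Of the members searched, which leaves out PRKDC, UBR4 had the most, with 22. Only stretches within 1 exon were taken. The longest A run anywhere in the CDS was 5 in SRRM2 and UBR4, 6 in AHNAK, DYNC1H1 and HUWE1, 7 in HERC2 and MACF1, 8 in HERC1 and MDN1 and 10 in PRKDC. A made up between 23.7% of the CDS in HERC2 and 31.3% in MACF1.

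The first question was whether RNAs of these genes were enriched or depleted in each RIP relative to total RNA. With PABPC, 9 of the 10 genes were depleted, all but SRRM2, and none was enriched, while 5 stayed depleted at a log2 cut-off of 1. Over all 14843 genes tested, 32.4% were depleted from PABPC and 38.4% were enriched with it. With PABPN, 1 of the 10 was depleted, DYNC1H1, and none was enriched, and at a log2 cut-off of 1 none was depleted. Over all 15526 genes tested, 14.6% were depleted from PABPN and 17.5% were enriched with it. A call required a log2 fold change beyond 0.5, baseMean above 50 and an adjusted p, from the authors' DESeq2 Wald test, no higher than 0.01. The median log2 fold change of the 10 genes was -0.99 with PABPC and -0.28 with PABPN, beside 0.14 and -0.04 for all genes tested and 0.25 and -0.09 for protein coding genes.

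**Figure D1:**
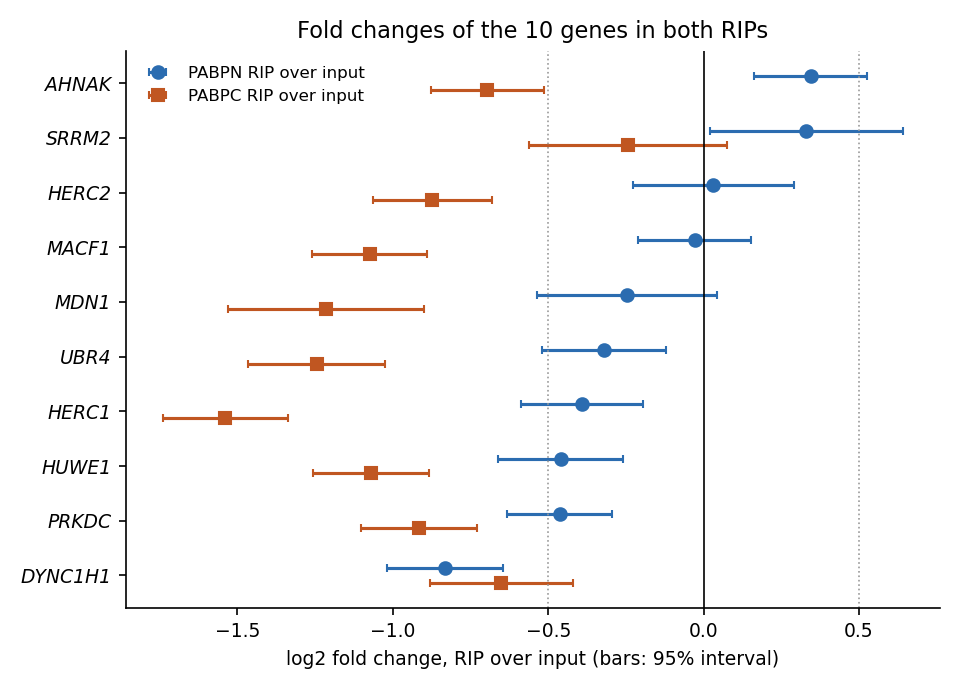
Log2 fold change of each RIP over input for the 10 genes, ordered by the PABPN value. Blue circles are PABPN RIP, orange squares are PABPC RIP, bars are 95% intervals from the deposited standard error (3 libraries per group) and dotted lines mark 0.5 and -0.5. The PABPC value lies below the PABPN value in 9 genes, and in DYNC1H1 the PABPN value is the lower. The 2 intervals overlap in DYNC1H1 and in SRRM2.

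The difference between the RIPs was then tested gene by gene. Of the 10 genes, 7 were called higher with PABPN and none was called higher with PABPC, with 3 of the 7 left at a cut-off of 1 or in a test against 0.5. By value, 9 genes stood higher with PABPN and DYNC1H1 stood lower. Over all 14579 genes tested, 36.1% were higher with PABPN and 33.4% were higher with PABPC. The 3 genes short of a call were SRRM2, PRKDC and DYNC1H1. The calls that end there are those for UBR4, HUWE1, MDN1 and HERC2. From here on, genes counted as higher with either protein are those called by this test. The test was a two-sided normal test of the difference with Benjamini-Hochberg (BH) adjustment over all genes, called at a difference beyond 0.5 and an adjusted p of at most 0.01. Both comparisons use the same input libraries, whose error was counted in full on both sides. The median difference of the 10 genes was 0.91, beside 0.07 for all genes and -0.12 for protein coding genes.

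The members were spread over more than their errors. Their SD was 0.37 with PABPN and 0.36 with PABPC, while the median SE of a member was 0.101 and 0.100. Neighbours in the order were mostly not separable. With PABPN, from highest to lowest, the order was AHNAK, SRRM2, HERC2, MACF1, MDN1, UBR4, HERC1, HUWE1, PRKDC and DYNC1H1, and of the 9 neighbouring pairs only PRKDC and DYNC1H1 lay further apart than 1.96 errors of their gap (gap 0.37, error 0.129). With PABPC the order was SRRM2, DYNC1H1, AHNAK, HERC2, PRKDC, HUWE1, MACF1, MDN1, UBR4 and HERC1, and only SRRM2 and DYNC1H1 lay further apart (gap 0.41, error 0.200). In the difference, only PRKDC and DYNC1H1 did so (gap 0.63, error 0.198).

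Levels are given below as reads per M reads on listed genes (RPM), per kilobase of the exonic length in the deposited tables. They are means of 3 libraries worked out from baseMean and fold change, and because intronic reads were counted too, they are not pure mRNA levels. The fold changes rest on DESeq2 size factors instead. Scaling to total reads moves every log2 fold change by 0.13 upwards with PABPN and by 0.19 downwards with PABPC, so a level can move slightly against its fold change.

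Among the cytoskeletal genes, DYNC1H1 encodes the heavy chain of cytoplasmic dynein, the motor that walks towards microtubule minus ends. The gene (ENSG00000197102, chr14:101964573-102056443, plus strand, hg38) stood at 27.6 RPM per kb in input, 17.0 in PABPN RIP and 15.4 in PABPC RIP. It was lower in both RIPs by similar amounts, with a log2 fold change of -0.83 (SE 0.0955, DESeq2 adjusted p 7.93e-17) with PABPN and -0.65 (SE 0.117, adjusted p 8.83e-08) with PABPC, both short of a log2 cut-off of 1. The difference of -0.18 (error 0.151, BH-adjusted p 0.268, 95% interval -0.48 to 0.12) did not pass the test and takes the opposite sign when scaled to total reads. DYNC1H1 was thereby the only member depleted from PABPN and the only one without a higher value there than with PABPC. Its PABPN value lay at the 7.0 percentile of the protein coding genes tested in both comparisons.

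MACF1 encodes a spectraplakin that links microtubules to actin. The gene (ENSG00000127603, chr1:39081316-39487177, plus strand) stood at 14.4 in input, 15.5 in PABPN RIP and 5.98 in PABPC RIP. Its log2 fold change was -0.03 (SE 0.0925, adjusted p 0.844) with PABPN, which turns positive when centred on all genes or scaled to total reads, and -1.07 (SE 0.0946, adjusted p 5.56e-29) with PABPC. The RIPs differed by 1.05 (error 0.132, BH-adjusted p 9.59e-15), which is a 2.06-fold gap between the fold changes. By DESeq2 fold change, the gene with the largest CDS was close to input with PABPN and at about 0.475 of it with PABPC. Scaled to total reads, as the levels are, its log2 changes were 0.11 and -1.26.

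AHNAK encodes a scaffold protein, made mostly of repeats, that lies under the plasma membrane. The gene (ENSG00000124942, chr11:62433542-62556235, minus strand) stood at 15.9 in input, 22.2 in PABPN RIP and 8.61 in PABPC RIP. The PABPN level was above input and the PABPC level below it. Its log2 fold change with PABPN, 0.34 (SE 0.0928, adjusted p 0.000863), had a small p but was short of the cut-off of 0.5. With PABPC it was -0.70 (SE 0.0933, adjusted p 3.86e-13), a call that ends with a log2 cut-off of 1 or with a Wald test against 0.5, as it does for DYNC1H1. The RIPs differed by 1.04 (error 0.132, BH-adjusted p 1.01e-14).

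The repeats of AHNAK are visible in its coding sequence. The 30-base stretch that recurs most often, shown in capitals throughout because every base is repeated, occurs in 9 copies within the CDS.
AHNAK repeat (first copy, chr11:62531780-62531809, hg38, minus strand): GGCCCAGACTGGCACCTGAAGATGCCCAAG
Of all 30-base windows of the AHNAK CDS, 20.8% occur more than once in it, against 0% in each of the other 9 genes. Over windows of the read length, 75 nt, 97.2% of the AHNAK exonic windows occur once in hg38, and the rest are repeated inside the gene alone. A read from such a window cannot be placed within AHNAK but belongs to no other gene.

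The other 4 genes with a shared function encode ubiquitin ligases, which mark proteins for degradation or signalling. All 4 were depleted from PABPC, none was called with PABPN, and all 4 were higher with PABPN than with PABPC. Over all genes tested, 32.4% were depleted from PABPC and 36.1% were higher with PABPN. With PABPN 14.6% of all genes tested were depleted and 17.5% enriched, so most were not called there either. UBR4 belongs to the ligases that recognise destabilising N-terminal residues. The gene (ENSG00000127481, chr1:19074510-19210266, minus strand) stood at 21.8 in input, 19.2 in PABPN RIP and 8.04 in PABPC RIP. Its log2 fold changes were -0.32 (SE 0.102, adjusted p 0.00545) and -1.25 (SE 0.113, adjusted p 1.41e-27), and the RIPs differed by 0.92 (error 0.152).

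HUWE1 is a HECT ligase whose substrates include MCL1 and p53. The gene (ENSG00000086758, chrX:53532096-53686752, minus strand) stood at 54.9 in input, 43.8 in PABPN RIP and 22.9 in PABPC RIP. Its log2 fold changes were -0.46 (SE 0.102, adjusted p 3.75e-05) and -1.07 (SE 0.0958, adjusted p 4.54e-28). The difference between RIPs, 0.61 (error 0.140, BH-adjusted p 2.45e-05), was the smallest of the 7 that were called. HUWE1 and PRKDC had PABPN values just short of the cut-off of -0.5.

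HERC1 and HERC2 are HECT ligases with RCC1-like domains, HERC2 with a part in DNA damage signalling. HERC1 (ENSG00000103657, chr15:63608618-63833948, minus strand) stood at 14.0 in input, 11.7 in PABPN RIP and 4.22 in PABPC RIP. Its log2 fold change of -1.54 (SE 0.102, adjusted p 7.41e-50) with PABPC was the lowest of the 10. By DESeq2 fold change this is a 2.91-fold depletion (PABPC RIP at 0.344 of input, 95% interval 0.299 to 0.396). With PABPN the log2 fold change was -0.39 (SE 0.100, adjusted p 0.000425), and the difference of 1.15 (error 0.143) was the highest of the 10. HERC2 (ENSG00000128731, chr15:28111040-28322179, minus strand) stood at 19.8 in input, 22.2 in PABPN RIP and 9.46 in PABPC RIP. It was level with input in PABPN RIP within its error (0.03, SE 0.132, 95% interval -0.23 to 0.29) and lower in PABPC RIP (-0.87, SE 0.0981, adjusted p 2.93e-18), with a difference of 0.90 (error 0.165, BH-adjusted p 8.60e-08).

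HERC2 is the member whose reads are hardest to assign, because parts of it were duplicated on chromosome 15 and elsewhere. Of its exonic 75-nt windows, 83.0% occur once in hg38 and 17.0% have copies outside the gene. In 7 members every such exonic window occurs once, and in DYNC1H1 99.2% do. The stretch below lies in the exonic HERC2 window with the most copies, 8 in hg38 with HERC2 itself included, and is in capitals because all of it is shared.
HERC2 copied stretch (chr15:28233454-28233483, hg38, minus strand): TGGTGGATGTTTGTAGAGTTGTCTACCAAG
Of the listed pseudogene copies, 4 had enough reads to be tested, and in each the PABPN value was the higher (BH-adjusted p of 1.61e-06 or less). HERC2P2 drew input reads equal to 14.98% of those of HERC2, not divided by length. It was enriched with PABPN (1.77, SE 0.126), while with PABPC it stood at 0.27 (SE 0.128, not called). HERC2P9, with 7.39% of the input reads of HERC2, stood at 0.43 (SE 0.109, not called) with PABPN and was depleted from PABPC (-0.96, SE 0.124). HERC2P10 stood at -0.16 (SE 0.150, not called) with PABPN and was depleted from PABPC (-2.15, SE 0.195). HERC2P3 was enriched with PABPN (1.32, SE 0.224) and stood at -0.60 (SE 0.317, not called) with PABPC. The copies HERC2P1, HERC2P4, HERC2P5, HERC2P6, HERC2P7, HERC2P8 and HERC2P11 had baseMean values below 5 or were listed at 0. How many reads HERC2 and its copies exchange was not tested. Without HERC2, the medians of the remaining 9 genes were -0.32 with PABPN and -1.07 with PABPC.

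The last 3 members encode nuclear proteins. PRKDC encodes the catalytic subunit of the DNA-dependent protein kinase, which joins broken DNA ends. The gene (ENSG00000253729, chr8:47773111-47960178, minus strand) had the highest level of the 10 by the deposited exonic length, with 92.8 RPM per kb in input, 73.9 in PABPN RIP and 43.0 in PABPC RIP. Its log2 fold changes were -0.46 (SE 0.0863, adjusted p 5.90e-07) and -0.92 (SE 0.0947, adjusted p 2.46e-21), the second a call that ends with a log2 cut-off of 1, as for HERC2. The difference of 0.45 (error 0.128, BH-adjusted p 0.000666) had a small p but missed the cut-off of 0.5, and it passes when scaled to total reads (0.78).

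MDN1 encodes midasin, a very large ATPase that strips assembly factors from precursors of the large ribosomal subunit. The gene (ENSG00000112159, chr6:89642498-89819794, minus strand) stood at 38.8 in input, 35.9 in PABPN RIP and 14.7 in PABPC RIP. With PABPN its log2 fold change was -0.25 (SE 0.148, adjusted p 0.181, 95% interval -0.54 to 0.04), so a small depletion was not separable from none. With PABPC it was -1.21 (SE 0.161, adjusted p 1.86e-13). The RIPs differed by 0.97 (error 0.219, BH-adjusted p 1.80e-05).

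SRRM2 encodes a scaffold protein of nuclear speckles that associates with the spliceosome. The gene (ENSG00000167978, chr16:2752626-2772538, plus strand) stood at 40.9 in input, 56.4 in PABPN RIP and 30.3 in PABPC RIP. Its SEs were the largest of the 10 in both comparisons. Its log2 fold change was 0.33 (SE 0.159, adjusted p 0.0819) with PABPN and -0.24 (SE 0.162, adjusted p 0.185) with PABPC, and neither was called. The difference of 0.57 (error 0.227, BH-adjusted p 0.0160) missed the threshold on p, and it was called with an adjusted p of at most 0.05, with the error of the shared input taken out, and when scaled to total reads.

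**Figure D2:**
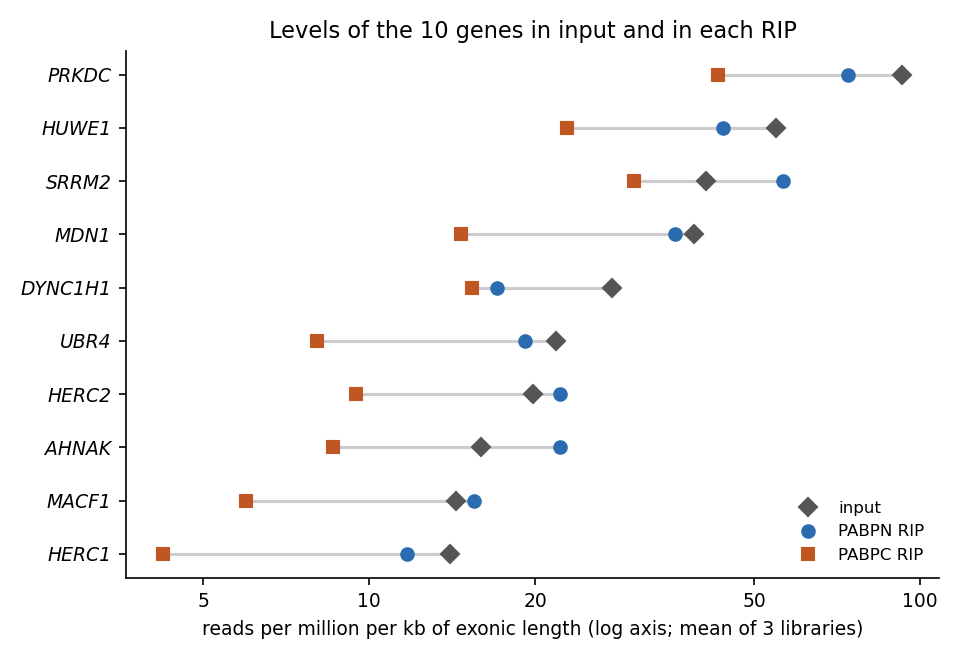
Mean level of the 10 genes in input (grey diamonds), PABPN RIP (blue circles) and PABPC RIP (orange squares), in RPM per kilobase of exonic length on a log axis. Each point is a group mean of 3 libraries worked out from the deposited tables, with no error shown. The PABPC point is the lowest of the 3 in every gene, and input levels run from 14.0 in HERC1 to 92.8 in PRKDC with the deposited exonic length.

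Per kilobase of deposited length, the input order was PRKDC, HUWE1, SRRM2, MDN1, DYNC1H1, UBR4, HERC2, AHNAK, MACF1 and HERC1. In PABPN RIP SRRM2 stood second, at 56.4, and in PABPC RIP it again stood second, at 30.3. For DYNC1H1 and MACF1 the deposited exonic lengths, 36.8 and 42.7 kb, are much longer than their coding sequences, so their levels per kilobase are the lower for it. The order depends on the length used. With the exons of GENCODE release 44, PRKDC (49.2 in input) falls below HUWE1 (53.6), MACF1 (8.72) becomes the lowest in input in place of HERC1, and SRRM2 becomes the highest in both RIPs, where PRKDC stands at 39.2 and 22.8. With that length the median of the 10 genes was 21.6 in place of 24.7 in input and 9.03 in place of 12.1 in PABPC RIP.

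The members were then set beside the other coding genes with a CDS above 8 kb, of which 163 were tested in both comparisons. These genes were likewise depleted from PABPC in 130 cases (79.8%, median log2 fold change -1.26) and enriched in 1 (0.613%). With PABPN 14 were enriched and 16 depleted of 172 (median -0.09, which turns positive when scaled to total reads). Of the 163, 125 (76.7%) were called higher with PABPN and 2 were called higher with PABPC (median difference 1.24). By the difference between RIPs they ranked from 92 (HERC1) to 169 (DYNC1H1) of 173, counted from the highest, so that each lay in the lower part of the class.

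The highest differences in this class belonged to LRP1B (5.02, error 0.177), TENM4 (2.95, error 0.182) and DNAH14 (2.75, error 0.159), whose introns sum to 1884, 774 and 456 kb. The lowest belonged to FLNC (-1.36, error 0.168), which encodes a filamin, MAP1A (-0.92, error 0.284), which encodes a microtubule-associated protein, and SRCAP (-0.49, error 0.215, not called), which encodes a chromatin remodeller. Their introns sum to 19.7, 3.74 and 30.5 kb. DYNC1H1, ranked 169 of 173, lay near this end of the class. A list held 69 other genes with a long CDS, many also in this class and some with a CDS below 8 kb. Of its 68 tested genes, 51 were depleted from PABPC and none was enriched (median -1.12). In the difference, 48 were called higher with PABPN and 4 were called higher with PABPC. Those 4 were FLNC, FLNA, PRPF8 and FASN. Only FLNC has a CDS above 8 kb (8.175 kb), while FLNA has 7.941, PRPF8 7.005 and FASN 7.533 kb.

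Across all coding genes the PABPC value fell with the length of the CDS. Its median was 1.18 for a CDS up to 1 kb, 0.34 from 1 to 2 kb, -0.31 from 2 to 4 kb, -0.86 from 4 to 6 kb, -0.83 from 6 to 8 kb and -1.21 above 8 kb with the members included. With PABPN the same medians ran between -0.17 and -0.04, and scaling to total reads moves each of them 0.13 upwards. Within the class above 8 kb, however, CDS length and the PABPC value had a Spearman correlation of -0.08 over the 163 genes, while intron length had one of -0.74. The 10 members were chosen by CDS length and to span intron content. Over them the correlation of the PABPC value was -0.62 with intron length and -0.47 with CDS length. AHNAK and SRRM2, chosen for little intron, had a median PABPC value of -0.47, beside -1.07 over the other 8 members. Over all 10 the correlation was -0.61 with the number of exons and 0.72 with the length of the longest exon. For the difference between RIPs the members had 0.48 with intron length and 0.79 with CDS length. Over 12449 coding genes the correlation of the PABPC value was -0.77 with intron length and -0.53 with CDS length. With PABPN the correlation with intron length was -0.19 over the members, -0.37 over the 163 genes and -0.15 over coding genes. These are descriptions across genes, which are not independent replicates and share the same libraries.

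**Figure D3:**
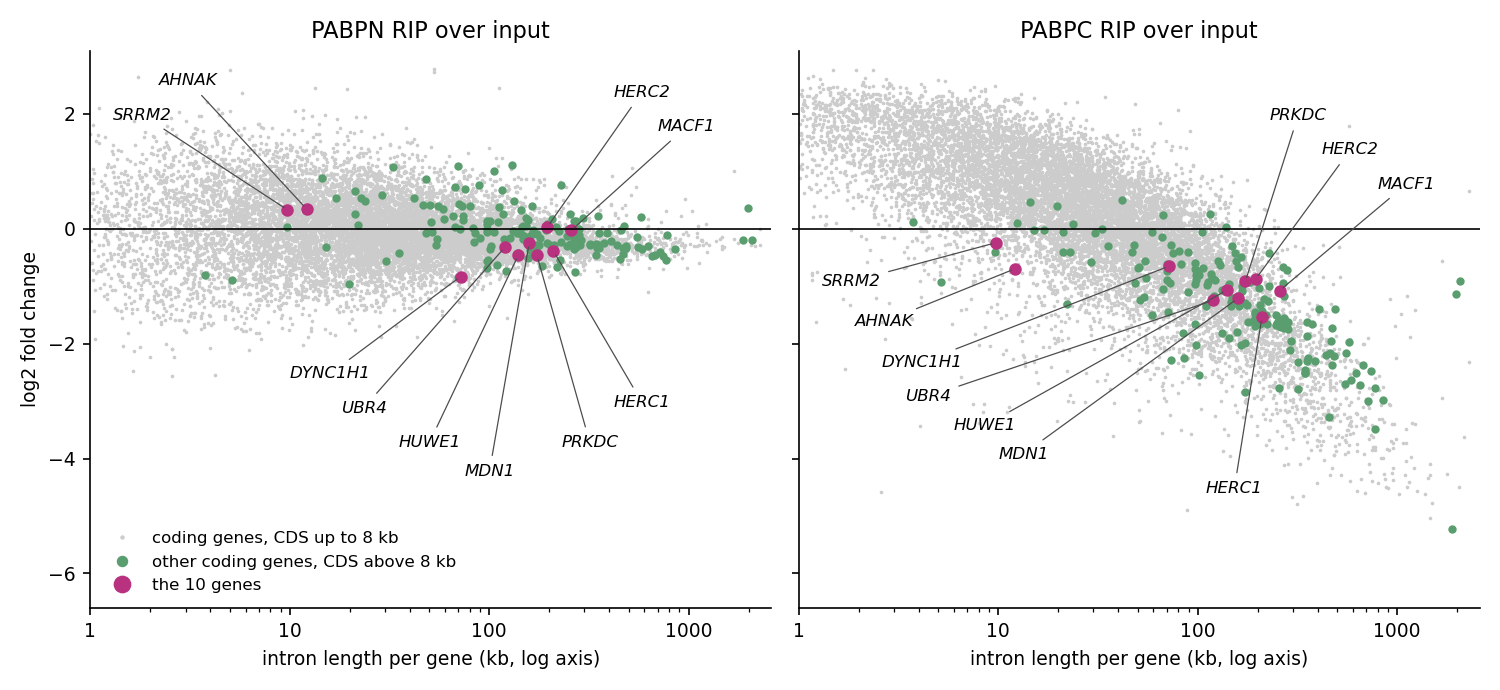
Log2 fold change of PABPN RIP (left) and PABPC RIP (right) over input against the summed intron length of the principal transcript, on a log axis, for coding genes tested in both comparisons with at least 1 kb of intron. Grey points are genes with a CDS up to 8 kb, green points the other genes above 8 kb and purple points the 10 genes. On the right the values fall with intron length and the 10 genes follow the cloud except SRRM2 and AHNAK, which lie at its lower edge. On the left there is little slope.

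Genes with a giant and with a short CDS were compared within ranges of intron length, which bring intron lengths closer without matching them. Below 25 kb the median intron length was 17.0 kb with a CDS above 8 kb and 10.1 kb with one of 1 to 2 kb. From 100 to 200 kb it was 148 and 128 kb. Between 100 and 200 kb of intron, the median PABPC value was -1.07 over 46 other genes with a CDS above 8 kb and -0.98 over 403 genes with a CDS of 1 to 2 kb. Below 25 kb of intron the same medians were -0.03 (13 genes) and 0.86 (2393 genes). From 25 to 50 kb they were -0.30 (8 genes) and 0.23 (1088 genes). From 50 to 100 kb they were -0.83 (32 genes) and -0.28 (731 genes). Between 200 and 400 kb the order was turned, with -1.65 (40 genes) above 8 kb and -2.22 (179 genes) at 1 to 2 kb, and above 400 kb it was -2.37 (24 genes) and -3.29 (72 genes). Within these ranges a giant CDS went with a lower PABPC value below 100 kb of intron, where it also went with longer introns. From 50 to 100 kb the median intron lengths were close, 73.2 kb above 8 kb of CDS and 67.2 kb at 1 to 2 kb. Among genes with the most intron a giant CDS went with a higher PABPC value. No test was made of these medians.

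Each member can be placed in the same way among all other coding genes in its own range of intron length. In the range from 100 to 200 kb, which held 1346 other coding genes with a median PABPC value of -1.02, the PABPC percentile was 46.3 for HUWE1, 40.0 for MDN1, 39.1 for UBR4, 59.8 for HERC2 and 57.4 for PRKDC. By PABPC value these 5 genes lay in the middle of genes with like introns. Their PABPN percentiles in that range were 13.7 for HUWE1, 13.5 for PRKDC, 29.0 for UBR4, 40.6 for MDN1 and 77.6 for HERC2. In the range from 200 to 400 kb (621 genes, median -2.02) the percentile was 73.9 for HERC1 and 87.4 for MACF1, so both were higher than most genes with like introns, although HERC1 was the lowest of the members. DYNC1H1 (50 to 100 kb, 1949 genes, median -0.38) lay at the 34.7 percentile with PABPC but at the 3.13 percentile with PABPN.

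SRRM2 and AHNAK stood apart in this respect. Among 5888 coding genes with under 25 kb of intron, whose median PABPC value was 1.01, SRRM2 lay at the 8.92 percentile and AHNAK at the 4.47 percentile. Of the 13 other genes with a CDS above 8 kb in that range, 5 were below SRRM2 and 2 below AHNAK. The placing of AHNAK rests on the transcript chosen. With all bases of the annotated gene outside exons counted as intron, an alternative added after seeing the data, AHNAK moves to the range from 100 to 200 kb and to the 62.1 percentile with PABPC, and to the 92.5 percentile with PABPN. SRRM2 stays below 25 kb, at the 7.54 percentile. Which part of the AHNAK gene the counted reads came from cannot be told from gene totals.

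**Figure D4:**
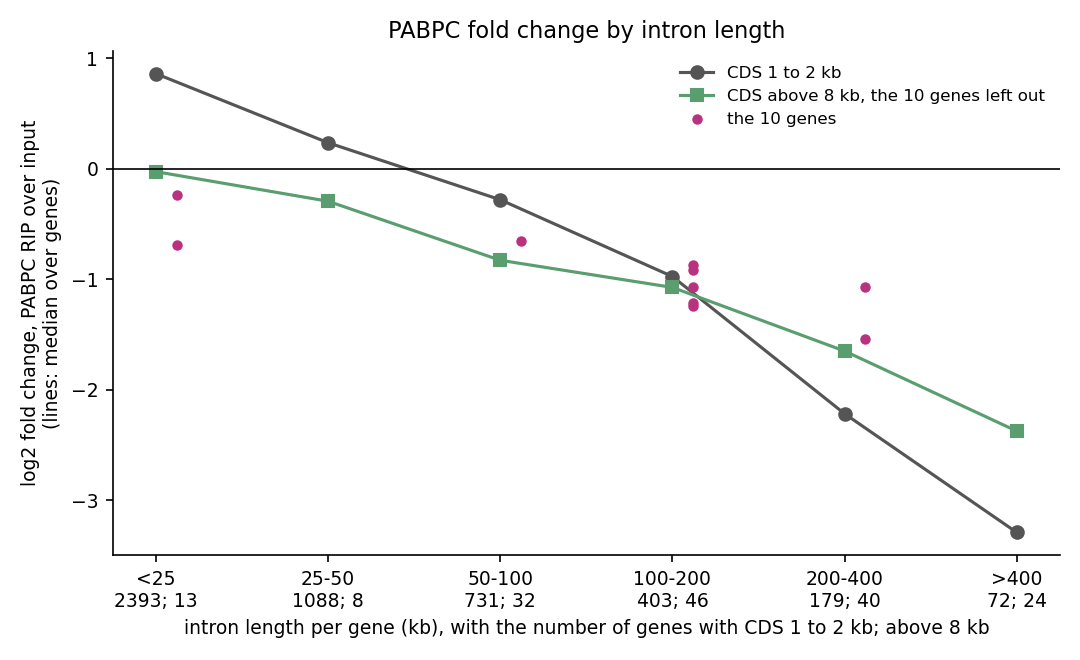
Log2 fold change of PABPC RIP over input by summed intron length of the principal transcript. Lines join medians over coding genes with a CDS of 1 to 2 kb (grey) and over other genes with a CDS above 8 kb (green), the numbers under the axis give the genes in each, and purple points are the 10 genes. The lines cross near 100 to 200 kb, where the medians are -0.98 and -1.07.

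The genes were next set beside genes of related function. Over all genes tested, 32.4% were depleted from PABPC and 38.4% enriched, and 14.6% were depleted from PABPN and 17.5% enriched. Higher with PABPN were 36.1%, and higher with PABPC 33.4%. Median intron length was 26.3 kb for the dynein list, 122 kb for ligases, 99.5 kb for kinases and 23.1 kb for midasin partners. It was 73.2 kb for linkers, 18.8 kb for the AHNAK list and 21.8 kb for the SRRM2 list. No list was tested against all genes or genes with like introns. Among 24 subunits and regulators of dynein and dynactin, 13 were enriched with PABPC and 2 were depleted (median 0.83), 9 were depleted from PABPN and 2 were enriched (median -0.37), and 16 were higher with PABPC against 2 higher with PABPN (median difference -0.98). DYNC1H1 was depleted from PABPN, as 9 of these were, and from PABPC, as 2 of these were. The lowest differences were those of DYNLL1, a dynein light chain (-2.66, error 0.257), and DCTN3, a dynactin subunit (-2.31, error 0.168). The highest were those of the intermediate chain gene DYNC1I1 (2.48, error 0.192), which has 323 kb of intron, and NDEL1 (0.80, error 0.183).

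Of 23 other HECT and UBR ligases, 17 were depleted from PABPC and 2 were enriched (median -0.82), and 13 were higher with PABPN against 3 higher with PABPC (median difference 0.63), so the giant ligases had the direction of most of their relatives. With PABPN 1 was depleted and none enriched. HERC4, a small relative of HERC1, had the highest difference (2.11, error 0.175), followed by NEDD4L (1.39, error 0.130). UBR7 (-1.97, error 0.150) and HECTD3 (-1.30, error 0.161) had the lowest, and their introns sum to 18.5 and 5.18 kb.

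Among 12 kinases related to PRKDC and partners of its enzyme, 6 were depleted from PABPC and 3 enriched, 2 were depleted from PABPN and 3 enriched, and 7 were higher with PABPN against 3 higher with PABPC (median difference 0.60). The kinase ATM (1.56, error 0.153) and the ligation factor XRCC4 (2.62, error 0.153) had the highest differences. XRCC6 (-2.25, error 0.220) and XRCC5 (-1.07, error 0.200), which encode the Ku70 and Ku80 proteins that hold the kinase on DNA ends, had the lowest. PRKDC itself stood at 0.45 (not called), so the genes of 1 complex had differences of both signs.

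Of 10 partners of midasin in ribosome assembly, 5 were enriched with PABPC and 1 was depleted, 3 were depleted from PABPN, and 5 were called higher with PABPC against none called higher with PABPN (median difference -0.48). By value MDN1, at 0.97 (error 0.219), lay above all 10, though its gap to the highest of them was not tested. TEX10 (0.50, error 0.204, not called) and PELP1 (0.00, error 0.196, not called) were the highest, PES1 (-2.01, error 0.253) and WDR18 (-1.72, error 0.177) the lowest. Among 11 cytoskeletal linkers, 7 were depleted from PABPC and 1 enriched, 3 were depleted from PABPN, and 5 were called higher with PABPN against 1 called higher with PABPC (median difference 0.44). The highest were UTRN (1.86, error 0.133), which encodes utrophin, and DST (1.78, error 0.151), the closest relative of MACF1. The lowest were MAPRE1 (-2.13, error 0.233), which encodes a microtubule end-binding protein, and SPTBN1 (-0.12, error 0.143, not called).

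Of the 4 genes listed with AHNAK, 3 were enriched with PABPC and 2 were depleted from PABPN (median difference -1.37). S100A10 (-2.33, error 0.152) and ANXA2 (-1.96, error 0.148), whose proteins bind AHNAK, were higher with PABPC. PRX (-0.78, error 0.296) and the giant paralog AHNAK2 (0.95, error 0.571) were not called. Of the 6 genes listed with SRRM2, 3 were enriched with PABPC and none depleted, 2 were depleted from PABPN, and 4 were higher with PABPC (median difference -1.28). SRSF1 (-1.80, error 0.241) and RNPS1 (-1.64, error 0.188) were the lowest, while SON (0.12, error 0.223) and SRRM1 (-0.09, error 0.214) were not called. SON encodes the other large speckle scaffold, and its PABPC value of -0.36 (SE 0.168, not called) lay near that of SRRM2.

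**Figure D5:**
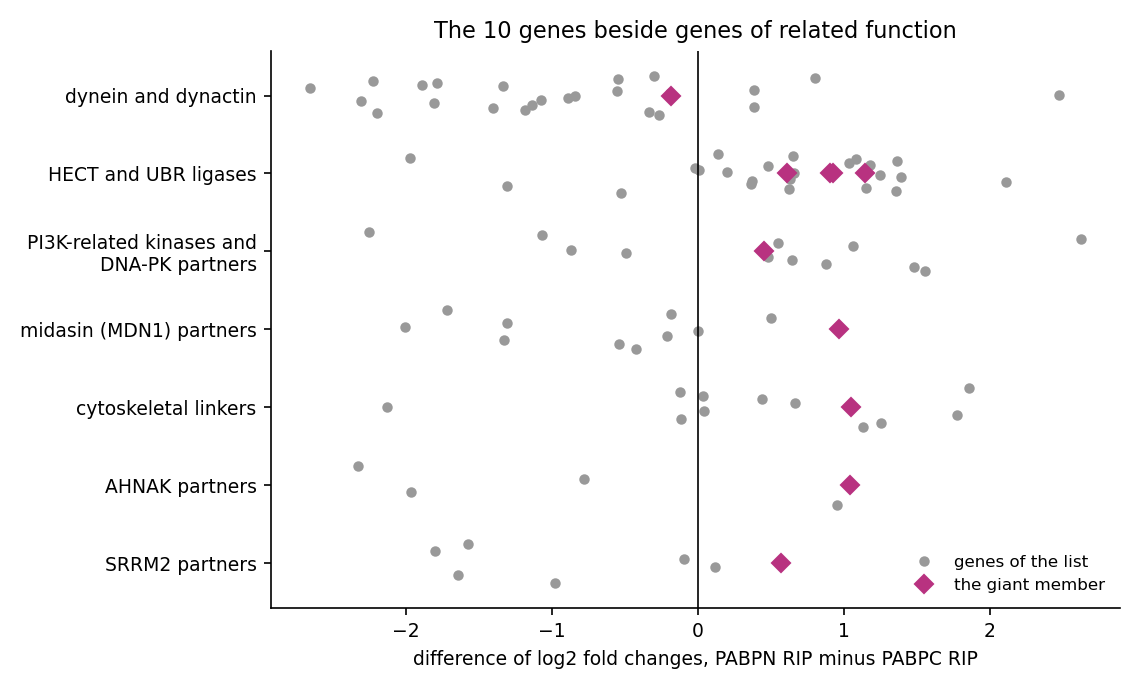
Difference of log2 fold changes, PABPN RIP minus PABPC RIP, for genes of related function (grey) and for the giant member or members each list was built around (purple diamonds). Each row is 1 list, grey points are spread vertically for legibility, and no errors are drawn. The diamonds lie to the right of 0 except DYNC1H1 at -0.18, and midasin at 0.97 lies to the right of its partners.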

How the data were processed

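RNA from input, PABPN RIP and PABPC RIP (3 libraries each, grouped by sample title) was ribodepleted and read from a single end over 75 nt. The authors aligned reads to hg38 with STAR, counted exonic and intronic reads together with featureCounts 2.0.2 on an annotation without overlapping stretches and annotated readthrough transcripts, dropped genes with coverage running in from upstream from the result tables, and compared each RIP with input in DESeq2 without stating the design formula. The signal column deposited by the authors is baseMean, the mean of normalised counts over 6 libraries. The authors' log2 columns hold each fold change with its standard error, and the p-value deposited is adjusted by Benjamini-Hochberg. The exonic length column was taken as deposited. The fold changes printed against input are therefore the authors' own, and p-values measure the spread between these 3 lysates.

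Group means were solved from baseMean and fold change and scaled to the total over listed genes. Reads on listed genes per library were estimated from genes with 1 read, whose baseMean depends on a single size factor. The difference between RIPs was tested with errors added in quadrature over 14579 genes (baseMean above 50 in both tables) after the procedure had been tested on simulated data. Gene structure, coding sequences and copies of 75-nt windows came from GENCODE release 44 and hg38. The gene lists, the members and their naming (every member, every HERC2 copy, the 2 highest and 2 lowest differences per list, the 3 highest and lowest above a CDS of 8 kb) were chosen with earlier results of these data known. FLNA, PRPF8 and FASN were named after their values were seen. Some items are not reported here. Genes of the class above 8 kb and of the lists can coincide. Python 3.11.15, numpy 2.4.6, pandas 2.3.3 and scipy 1.17.1 were used.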

Additional observations from a re-analysis of the deposited data

How the results depend on the processing

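No member changed direction while called under any alternative run. A log2 cut-off of 1 gave 0 members depleted from PABPN, 5 depleted from PABPC and 3 higher with PABPN. Without a cut-off, PABPN had 1 enriched and 5 depleted, and the Wald test against 0.5 left 3 higher with PABPN. Centring moved the PABPC median of the members to -1.13. Scaling to total reads, added after seeing the data, gave medians of -0.15 with PABPN, -1.18 with PABPC and 1.24 for the difference. Reference exon lengths gave median levels per kilobase of 21.6 in input and 9.03 in PABPC RIP.

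Of 250 single values of members under the alternatives, 15 lost a call and 10 gained one, and of 400 counts in the gene lists 53 moved by over 1.5 times.

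For other genes with a CDS above 8 kb, shares of those tested moved as follows. Enriched with PABPN were 2.33% at a cut-off of 1, 1.74% by the Wald test against 0.5 and 13.95% scaled to total reads. Depleted from PABPN were 0% at a cut-off of 1, 20.3% without a cut-off, 0.581% by the Wald test and 5.23% scaled to total reads. Enriched with PABPC were 1.84% without a cut-off, 2.13% above 6 kb, and 0% at a cut-off of 1, when centred, by the Wald test, scaled to total reads and above 10 kb. Higher with PABPC were 0.613% at a cut-off of 1, by the Wald test and scaled to total reads, 4.0% above 6 kb and 0% above 10 kb. The cause of these moves, beyond the stricter or looser rule itself, was not tested.

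No paired analysis was possible because values per library were not analysed here, and for the same reason no replicate was left out. A fold change of these genes cannot separate spliced from unspliced RNA, and an effect below about 0.2 on the log2 scale is within the 95% interval of most members.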
